A study of Homo sapiens with 21 samples.

Results

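Long intergenic noncoding RNAs carrying a LINC symbol were followed across 5 groups of A673 cells, an established Ewing sarcoma line. The 113 genes described here were chosen by their symbol (LINC followed by digits only) and by a mean deposited log2 value of at least 5 over the 21 libraries, out of 2097 LINC genes and 57820 genes in all. The level therefore chose them, and the threshold was read over all groups together, so the levels are given as a description. Of the 113, 28 had at least 1 group mean below 5 and reached the threshold through the groups in which they were higher. The remaining 1984 LINC genes averaged less than 5, and 180 of these were abundant enough in some libraries to enter the test. The last genes inside the threshold were LINC01192 with a mean of 5.02 and LINC00243 with 5.01, and the first outside it were LINC01311 with 4.96 and LINC00115 with 4.93.

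All cells came from A673, whose growth depends on EWS/FLI, a fusion of the EWSR1 and FLI1 genes. The delta 22 group (4 libraries) carried EF-2-RNAi against EWS/FLI and a vector with the delta 22 mutant of the fusion. The mut9 group (3 libraries) carried the same RNAi with the mut9 mutant, and the wild-type group (5 libraries) the same RNAi with full-length type IV EWS/FLI. The knockdown group (5 libraries) carried that RNAi with empty pMSCV-hygro, and the control group (4 libraries) carried Luc-RNAi, directed at luciferase. Cells were selected for 4 days before the second infection, and the replicate number is a labelled batch. The labels do not say which residues delta 22 and mut9 lack, and 1 cell line was used, so the p-values cover the spread between batches of that line. According to its title, the study concerned binding of the fusion to GGAA microsatellites and the part its EWS segment has in it.

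LINC RNAs are transcripts that lie mostly between protein-coding genes and hold no long reading frame. The symbol is a catalogue number given by position and coding potential, not by function, and most LINC genes have no described role. EWS/FLI binds DNA through the ETS domain of FLI1, which reads the core GGAA. At tandem GGAA repeats the fusion is known to open chromatin and activate nearby genes, and it also lowers many others.

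The FLI1 row, which the fusion shares, ranged over 10.99 to 11.51 in delta 22, 10.10 to 10.39 in mut9, 10.35 to 10.69 in wild type, 9.59 to 9.99 in knockdown and 11.56 to 11.69 in control libraries on the deposited log2 scale, so the knockdown libraries were the lowest and did not overlap any other group. Of 8 Ewing sarcoma markers 7 were detected. CD99, a defining surface marker, was listed at exactly 0 in all 21 libraries, where absent RNA cannot be told apart from reads that were not counted. Markers of other cells were low for epithelium, endothelium and muscle, with summed linear values of 4.27 to 55.1 over all libraries, and 5 of the 13 matched genes stayed below a linear value of 10 throughout. The 3 fibroblast genes, whose sum was carried by PDGFRA, summed to 5373 to 19142 in delta 22, 1329 to 1415 in mut9, 286 to 469 in wild type, 4861 to 12465 in knockdown and 75.5 to 118 in control libraries. DCN ran otherwise, with log2 values of 3.44 to 3.68 in delta 22, 5.38 to 6.52 in mut9, up to 7.53 in wild type, 3.84 to 4.65 in knockdown and 4.18 to 5.49 in control libraries, and LUM stayed between 2.45 and 5.95 in all of them. Leukocyte genes, carried by CD79A with CD3E below a log2 of 0 in each library, summed to 32.1 to 34.7 in delta 22, 354 to 472 in mut9, 182 to 582 in wild type, 32.7 to 46.7 in knockdown and 285 to 507 in control libraries. The part of these shifts in the LINC results was not tested, and fewer cells expressing a transcript cannot be told apart from less of it per cell. Between 16708 and 17326 genes per library reached a linear value of 10, the deposited table keeps no library totals, and no pair of libraries held identical values.

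The 113 LINC genes were mostly of low abundance. Their means ran from 5.01 to 10.67 with a median of 6.28, against 9.03 for the 18040 genes tested, and 49 of them lay between 5 and 6, 43 between 6 and 8, 18 between 8 and 10 and 3 above 10. LINC00963 had the highest mean (10.67), followed by LINC02693 (10.33), LINC01963 (10.02), LINC00667 (9.98) and LINC01128 (9.82). Between genes these values depend on transcript length. Divided by exon length and averaged over all libraries, the linear value was 130.3 per kilobase of exon for LINC00963, against 1493.0 for LINC02732, 1217.1 for LINC03070 and 804.9 for LINC00973. The order of the last 3 differed by group. LINC02732 averaged 304.9 per kilobase in delta 22, 2780.7 in mut9, 2093.7 in wild type, 423.0 in knockdown and 2302.2 in control cells, and LINC00973 1361.4, 136.9, 224.5, 1960.1 and 31.0. LINC03070 averaged 1642.5, 1684.2, 1468.5, 1218.1 and 125.7 in the same order, so that LINC00973 led in knockdown, LINC03070 in delta 22 and LINC02732 in the other groups. In GENCODE 29, 87 of the 113 are annotated as lincRNA, 11 as processed transcripts and 4 as antisense RNAs. LINC02693 and LINC03040 are annotated as protein coding there, and LINC01605 stands for 2 Ensembl genes, of which the second lies inside the first.

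Libraries of a group differed by a median SD of 0.290 log2 units over the 113 genes, against 0.207 over all genes tested and 0.289 over the 3754 tested genes with means between 5 and 8. The spread of LINC genes was thus close to that of other genes of like level. LINC02154 (SD 0.963), LINC00520 (0.813), LINC00707 (0.734) and LINC02392 (0.731) varied most within groups. The authors' values have the form of regularized logarithms, which draw the differences of low genes together and so understate the fold changes of the least abundant ones.

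Over the 5 groups, 86 of the 113 genes differed in a moderated F test with limma, at an adjusted p below 0.05. Among all 18040 genes tested the same test called 81.3%, so the share of LINC genes that differed, 86 of 113, lay near the background. Their highest group mean fell in delta 22 for 13 genes, in mut9 for 23, in wild type for 25, in knockdown for 34 and in control for 18. The smallest ranges of group means belonged to LINC00526 (0.0924 log2 units), LINC00630 (0.1325) and LINC00339 (0.1342), whose F test gave adjusted p values of 0.983, 0.822 and 0.758. LINC00526 had 5.31, 5.59, 5.30 and 5.43 in delta 22 libraries, and 5.11, 5.63 and 5.38 in mut9 libraries. It had 5.16, 5.77, 5.52, 5.52 and 5.26 in wild-type libraries, 5.25, 5.59, 5.44, 5.67 and 4.83 in knockdown libraries, and 5.49, 5.01, 5.67 and 5.27 in control libraries. All 5 groups of LINC00526 overlapped.

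**Figure D1:**
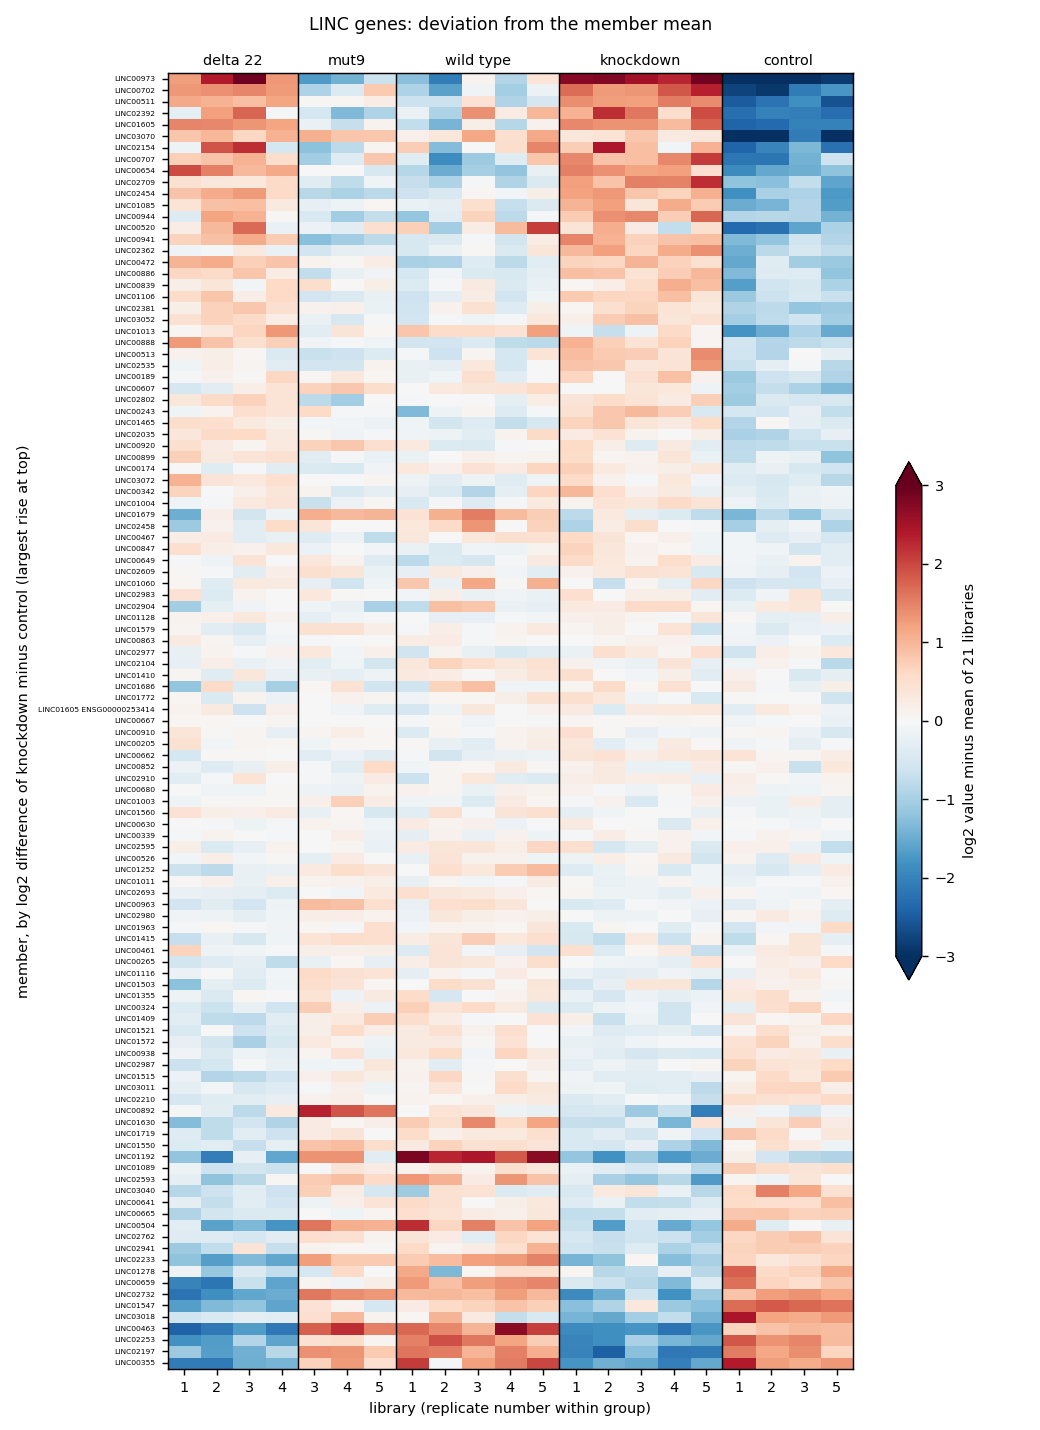
Heat map of the 113 LINC genes (rows) in 21 libraries (columns, ordered delta 22, mut9, wild type, knockdown, control), coloured by the deposited log2 value minus the gene's mean over all libraries. One block of genes was high in delta 22 and knockdown libraries and low in control libraries, and another showed the opposite colours, with mut9 and wild-type libraries between knockdown and control in the first block and near control in the second.

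Knockdown of EWS/FLI moved LINC genes both ways. Against control, 44 of the 113 genes were higher and 33 lower, 77 in all or 68.1%, and 36 did not pass the test. The same limma fit called 69.5% of all genes tested, 35.5% higher and 34.0% lower. The LINC share was therefore close to that of genes at large. At 2-fold or more, 30 LINC genes were higher and 17 lower, against 17.7% and 8.53% of all genes, or 26.2% together. The level filter admitted 28 of the 113 through groups in which they were high, so the excess over the background is no result about LINC genes. Of the 85 genes with every group mean at 5 or more, a subset that leaves out genes low in any group, 51 were called, and at 2-fold or more 17 were higher and 9 lower. The libraries of the groups did not overlap for 65 of the 113 genes, against 59.4% of all genes. The median difference over the 113 genes was 0.151 log2 units and that over all genes tested -0.007. With quantile scaling, which shifted the median of all genes to -0.202, 35 LINC genes were higher and 41 lower, and their median was -0.193.

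**Figure D2:**
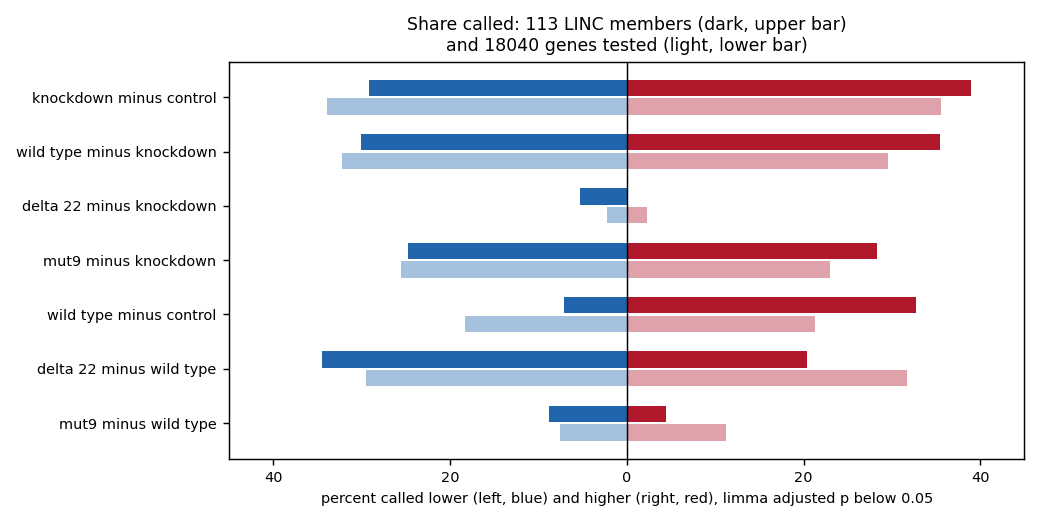
Percent of genes called higher and lower (adjusted p below 0.05) in each of the 7 comparisons, with the 113 LINC genes as dark bars and all 18040 genes tested as light bars. The bars of LINC genes and of all genes were close in knockdown against control. In wild type against control 37 LINC genes were higher and 8 lower, where 21.3% and 18.3% of all genes were. There the median LINC difference was 0.223 log2 units, and 0.02 with quantile scaling, which the bars do not show.

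LINC00973 (ENSG00000240476) had the largest rise. It had 10.95, 11.01, 10.74, 10.51 and 11.12 in knockdown libraries, against 4.35, 4.35, 5.24 and 5.35 in control libraries. The lowest knockdown library stood more than 5 log2 units above the highest control library, and the difference was 6.04 ± 0.43 log2 units (SE), or 66.0-fold, with an adjusted p of 2.7e-10. With a rescue vector it had 9.47, 10.59, 11.14 and 9.51 in delta 22 libraries, 6.51, 6.81 and 7.58 in mut9 libraries, and 6.97, 6.15, 8.34, 7.34 and 8.63 in wild-type libraries. The delta 22 libraries overlapped the knockdown range and stood above every wild-type and mut9 library. The nearest protein-coding gene to LINC00973 is DCBLD2, which encodes a membrane receptor-like protein, and transcripts of that gene were also higher with knockdown.

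LINC00702 (ENSG00000233117) has as its nearest protein-coding gene KLF6, the gene of a zinc finger transcription factor. It had 8.92, 8.50, 8.56, 9.09 and 9.57 in knockdown libraries, against 4.46, 4.34, 5.13 and 5.50 in control libraries, without overlap. The difference was 4.07 ± 0.34 (SE, 16.8-fold, adjusted p 2.7e-09). Its promoter, with that of LINC00973 and those of 3 genes that fell, is printed here because these genes were among the largest changes between knockdown and control and had a RefSeq window. Each window runs from 250 bases before to 50 after the RefSeq start in GRCh38.p14, on the gene's own strand, and capitals mark GGAA or its complement TTCC. The windows are LINC00973 at chr3:98914316-98914615 on the plus strand with 3 GGAA cores, LINC00702 at chr10:4243863-4244162 on the minus strand with 3, LINC00355 at chr13:64075962-64076261 on the minus strand with 4, LINC02197 at chr5:71446707-71447006 on the minus strand with 4, and LINC00463 at chr13:25179952-25180251 on the minus strand with 10.
LINC00973: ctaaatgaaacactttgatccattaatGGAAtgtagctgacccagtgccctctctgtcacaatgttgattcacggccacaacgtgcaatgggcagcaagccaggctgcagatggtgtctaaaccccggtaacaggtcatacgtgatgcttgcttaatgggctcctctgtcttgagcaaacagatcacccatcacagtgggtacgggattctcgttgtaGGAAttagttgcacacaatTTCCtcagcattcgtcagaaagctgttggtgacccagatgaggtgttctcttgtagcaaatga
LINC00702: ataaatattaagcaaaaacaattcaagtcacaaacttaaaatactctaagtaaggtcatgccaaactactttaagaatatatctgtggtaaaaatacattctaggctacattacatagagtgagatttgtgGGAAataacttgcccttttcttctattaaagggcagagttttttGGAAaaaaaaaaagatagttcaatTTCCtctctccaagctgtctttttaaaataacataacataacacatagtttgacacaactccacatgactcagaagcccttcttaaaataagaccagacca
LINC00355: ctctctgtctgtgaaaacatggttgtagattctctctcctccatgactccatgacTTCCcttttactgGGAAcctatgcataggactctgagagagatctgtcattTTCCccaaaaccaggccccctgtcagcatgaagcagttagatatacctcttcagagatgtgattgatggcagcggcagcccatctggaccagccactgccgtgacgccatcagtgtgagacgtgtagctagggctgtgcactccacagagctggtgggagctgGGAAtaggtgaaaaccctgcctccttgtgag
LINC02197: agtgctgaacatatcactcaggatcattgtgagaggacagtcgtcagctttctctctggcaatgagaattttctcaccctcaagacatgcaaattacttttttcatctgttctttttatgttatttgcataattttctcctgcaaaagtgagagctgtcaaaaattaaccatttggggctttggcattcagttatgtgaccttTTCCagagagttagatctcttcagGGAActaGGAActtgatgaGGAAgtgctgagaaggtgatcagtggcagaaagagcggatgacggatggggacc
LINC00463: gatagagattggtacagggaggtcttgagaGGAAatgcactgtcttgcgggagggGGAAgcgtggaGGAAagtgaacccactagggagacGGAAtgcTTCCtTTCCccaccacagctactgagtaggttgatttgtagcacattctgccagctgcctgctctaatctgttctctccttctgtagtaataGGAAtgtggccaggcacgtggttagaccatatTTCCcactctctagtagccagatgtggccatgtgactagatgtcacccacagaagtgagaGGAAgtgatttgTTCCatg
None of these 5 windows holds the doubled unit GGAAGGAA.

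LINC00511 (ENSG00000227036) has been studied as a growth-promoting RNA in several carcinomas. It had 9.57, 9.44, 9.41, 9.73 and 9.60 in knockdown libraries, against 5.70, 5.98, 6.34 and 5.58 in control libraries. Every knockdown library was above every control library by more than 3 log2 units, and the difference was 3.65 ± 0.20 (12.6-fold, adjusted p 6.54e-12). In the rescued cells it had 9.32, 9.23, 9.10 and 9.37 in delta 22 libraries, 8.23, 8.24 and 8.41 in mut9 libraries, and 7.53, 7.54, 8.63, 7.29 and 7.68 in wild-type libraries. Delta 22 libraries were all above the mut9 and wild-type libraries, which lay between the knockdown and control ranges.

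LINC01605 rose by 3.57 ± 0.26 (adjusted p 3.11e-10) and LINC02392 by 3.63 ± 0.45 (adjusted p 6.1e-07). The second Ensembl gene under the symbol LINC01605, ENSG00000253414, differed by 0.17 and was not called. Its F test over the 5 groups gave an adjusted p of 0.739, and values printed for LINC01605 are those of the first gene. The libraries of LINC02392 ran over 5.80 to 7.49 in knockdown and 3.00 to 3.26 in control cells, so the groups stood apart although the knockdown libraries were spread out. LINC03070, whose nearest protein-coding gene is NLGN4X, rose by 3.35 ± 0.23 and is taken up again below. LINC02154 (3.00 ± 0.59), LINC00707 (2.93 ± 0.45), whose RNA is known to bind the RNA-stabilising protein HuR, and LINC00654 (2.69 ± 0.25) followed, with adjusted p values of 0.000146, 9.01e-06 and 1.32e-08. LINC00941, studied in colorectal cancer in relation to TGF-beta signalling, rose by 1.99 ± 0.19 (adjusted p 1.37e-08). Knockdown and control libraries did not overlap for any gene of this paragraph other than ENSG00000253414.

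Among the genes that fell with knockdown, LINC00355 (ENSG00000227674) and LINC02197 (ENSG00000250387) had the largest differences. LINC02197 had 4.69, 4.26, 5.44, 4.54 and 4.57 in knockdown libraries, against 8.25, 7.85, 8.09 and 7.34 in control libraries. Those groups were well apart, and the difference was -3.18 ± 0.24 (adjusted p 4.94e-10). LINC00355 had 3.58, 3.90, 3.81, 3.30 and 3.82 in knockdown libraries, against 7.72, 6.61, 6.47 and 6.65 in control libraries, a difference of -3.18 ± 0.35 (adjusted p 1.08e-07). Control replicate 1 was the highest control library and the knockdown libraries were all below 4.

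LINC00463 (ENSG00000234056) lies on the same strand as AMER2, a gene linked to the WNT pathway. It had 3.45, 3.52, 3.60, 3.16 and 3.62 in knockdown libraries, against 6.03, 6.21, 6.34 and 6.29 in control libraries. The control libraries lay close together, and the difference was -2.75 ± 0.25 (adjusted p 7.39e-09). LINC02253 had 3.16, 3.29, 4.17, 3.76 and 3.60 in knockdown libraries, against 7.00, 6.49, 6.60 and 6.08 in control libraries, again without overlap, and differed by -2.95 ± 0.25 (adjusted p 4.13e-09). LINC02732 had 7.74, 8.19, 9.06, 7.84 and 8.59 in knockdown libraries, against 10.50, 10.90, 10.99 and 10.81 in control libraries. It fell by 2.52 ± 0.21 log2 units (adjusted p 2.07e-09), and knockdown replicate 3 was the closest to control. LINC01547 (-2.56 ± 0.25), LINC03018 (-2.72 ± 0.31), LINC00659 (-1.63 ± 0.27) and LINC00665 (-1.23 ± 0.12) fell as well, with adjusted p values of 2.31e-08, 1.85e-07, 2.62e-05 and 3e-08.

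**Figure D3:**
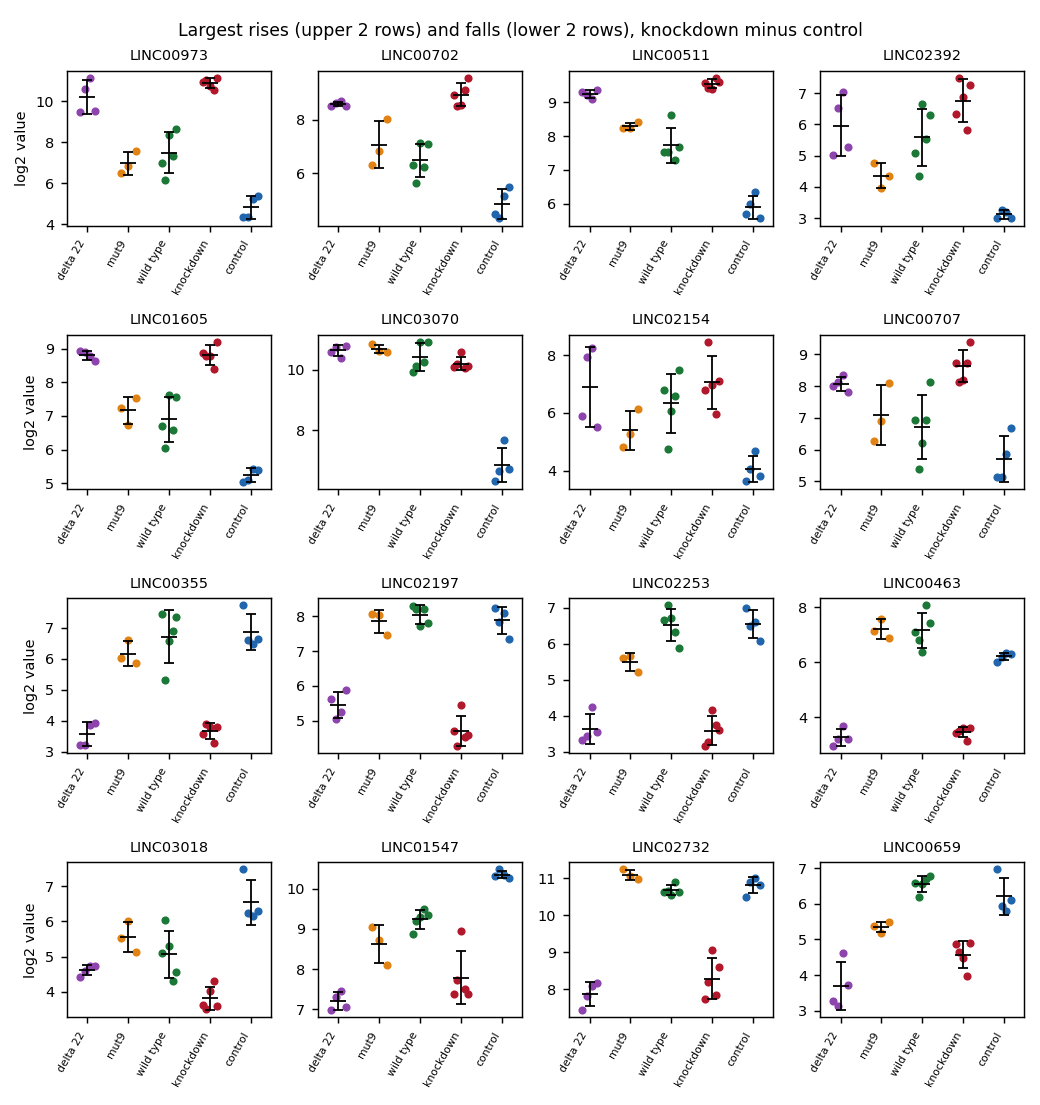
Deposited log2 values of 16 LINC genes by group (delta 22, mut9, wild type, knockdown, control from left to right), each point 1 library and each bar the mean with its SD, on a scale of its own per gene. The 8 largest rises with knockdown fill the upper rows and the 8 largest falls the lower rows, and the delta 22 points sit near the knockdown points in most panels, as for LINC00463, whose highest delta 22 library is 3.70 and highest knockdown library 3.62.

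Restoring wild-type EWS/FLI to knockdown cells raised 40 LINC genes and lowered 34, 74 of 113, against 61.8% of all genes tested (29.6% higher, 32.3% lower). At 2-fold or more, 17 were higher and 16 lower, 33 in all, against 6.76% and 12.8% of all genes, or 19.5% together, and among the 85 genes never below 5 in a group mean they were 6 and 7. For 47 genes the libraries did not overlap, against 42.5% of all genes. With quantile scaling, which moved the median of all genes by over 0.1 log2 units to 0.12, 47 were higher and 26 lower. The knockdown libraries are shared with the comparison above, so the directions of the comparisons are not independent and the values are given side by side.

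LINC01192 (ENSG00000241369) rose most with wild-type EWS/FLI. It had 7.85, 7.31, 7.43, 6.86 and 7.72 in wild-type libraries, against 3.87, 3.20, 3.96, 3.29 and 3.53 in knockdown libraries, a difference of 3.86 ± 0.34 or 14.6-fold (adjusted p 1.02e-08). The wild-type libraries were also above all control libraries, which had 5.19, 4.43, 4.18 and 4.13. LINC00463 rose by 3.69 ± 0.23 (adjusted p 1.37e-10), with 7.09, 6.81, 6.39, 8.07 and 7.44 in wild-type libraries, and LINC02197 by 3.35 ± 0.22 (adjusted p 2.55e-10), with 8.29, 8.22, 7.72, 8.20 and 7.80 in wild-type libraries. LINC00355 (3.04 ± 0.33), LINC02253 (2.93 ± 0.24), LINC00504 (2.40 ± 0.34), LINC02732 (2.39 ± 0.20) and LINC02233 (2.09 ± 0.22) rose too, with adjusted p values of up to 4.35e-06. None of these 8 genes had a wild-type library as low as its highest knockdown library.

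The largest falls with wild-type EWS/FLI were those of LINC00973 (-3.38 ± 0.41, adjusted p 6.21e-07) and LINC00702 (-2.46 ± 0.32, adjusted p 1.88e-06). LINC00654 fell by 2.11 ± 0.24, LINC02709 by 2.05 ± 0.23, LINC00707 by 1.92 ± 0.43, LINC01605 by 1.91 ± 0.24, LINC00511 by 1.82 ± 0.19 and LINC00944 by 1.53 ± 0.32 log2 units. Adjusted p values of these 6 ran up to 0.00062, and wild-type and knockdown libraries did not overlap in any of them. The gap was narrow for LINC00707, with 8.135 in the highest wild-type and 8.141 in the lowest knockdown library. For LINC00944 these libraries had 8.23 and 8.31. Wild-type replicates 3 and 5 had the highest mean over the 44 genes that knockdown raised, 6.77 and 6.94, where the 5 wild-type libraries ranged from 6.30 to 6.94, the knockdown libraries from 7.35 to 7.49 and the control libraries from 5.50 to 5.92.

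With the delta 22 mutant few genes of any kind passed the test against knockdown, and the share of LINC genes called was near that of all genes. Genes that did not pass are not shown to be unchanged. Against knockdown, 6 of 113 passed the test, 0 higher and 6 lower, where 4.50% of all genes did (2.24% higher, 2.26% lower). Groups were apart for 12 LINC genes, against 8.36% of all genes. An unadjusted limma p below 0.05 was found for 20 LINC genes and for 3511 of the 18040 genes tested. At 2-fold or more, 0 were higher and 2 lower, where 1.10% of all genes passed (0.377% higher, 0.721% lower). The count of 6 ranged from 2 to 7 when single libraries were left out, with 2 without delta 22 replicate 1, 2 or 4 or without knockdown replicate 1 or 5 and 3 without knockdown replicate 2. LINC02362 had 5.07, 5.12, 5.47 and 4.97 in delta 22 libraries, against 6.14, 6.40, 5.82, 6.28 and 6.55 in knockdown libraries, with no overlap, and differed by -1.08 ± 0.20 (adjusted p 0.00526). LINC02709 had 5.82, 5.70, 5.68 and 5.94 in delta 22 libraries, against 6.58, 6.20, 6.87, 6.85 and 7.58 in knockdown libraries, and differed by -1.03 ± 0.24 (adjusted p 0.0178, and 0.0651 in a fit of these groups alone). The differences of LINC00513 (-0.87 ± 0.23), LINC02535 (-0.79 ± 0.22), LINC00174 (-0.52 ± 0.14) and LINC00662 (-0.45 ± 0.12) had adjusted p values of 0.0338, 0.0415, 0.0433 and 0.0444. Each of these 4 lost its call when some single libraries were left out, with an adjusted p of 0.116 for LINC00513 and 0.123 for LINC02535 without delta 22 replicate 4, 0.12 for LINC00174 without delta 22 replicate 2 and 0.17 for LINC00662 without delta 22 replicate 1. LINC00662 lost its call also with the batch as a block (adjusted p 0.058).

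Over the 44 genes that knockdown raised, the library means ran from 7.14 to 7.37 in delta 22, 6.49 to 6.67 in mut9, 6.30 to 6.94 in wild type, 7.35 to 7.49 in knockdown and 5.50 to 5.92 in control cells. Over the 33 that it lowered they ran from 5.89 to 6.17 in delta 22, 7.14 to 7.41 in mut9, 7.34 to 7.51 in wild type, 5.98 to 6.28 in knockdown and 7.33 to 7.58 in control cells. The 36 genes without a call held 6.51 to 6.64, 6.75 to 6.85, 6.69 to 6.99, 6.62 to 6.74 and 6.56 to 6.69 in the same order of groups. The knockdown and control values chose these sets, so only the levels in the other 3 groups are new here. In the first set only delta 22 replicate 3, at 7.37, reached the knockdown range, and the other delta 22 libraries lay below it. In the second set the delta 22 and knockdown ranges overlapped. The mut9 and wild-type libraries lay between knockdown and control in the first set.

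Against wild type, delta 22 libraries were higher for 23 LINC genes and lower for 39, 62 in all, where 61.2% of all genes passed (31.7% higher, 29.5% lower). Differences of 2-fold or more numbered 25, of which 11 were higher and 14 lower, against 12.4% and 7.30% of all genes, 19.7% together, and among the 85 genes 5 were higher and 5 lower. The groups were apart for 51 of the 113 genes, against 47.3% of all genes. LINC00463 differed most, with 2.95, 3.22, 3.70 and 3.23 in delta 22 libraries, against 7.09, 6.81, 6.39, 8.07 and 7.44 in wild-type libraries, a difference of -3.89 ± 0.25 (adjusted p 1.72e-10). Their nearest libraries were more than 2 log2 units apart. LINC01192 differed by -3.68 ± 0.36 (adjusted p 4.51e-08), LINC00355 by -3.14 ± 0.35 (adjusted p 2.3e-07) and LINC02253 by -2.88 ± 0.25 (adjusted p 1.08e-08). Higher in delta 22 were LINC00973 by 2.69 ± 0.43 (adjusted p 2.16e-05), LINC00654 by 2.34 ± 0.25 (adjusted p 1.63e-07) and LINC00472 by 1.61 ± 0.19 (adjusted p 6.68e-07).

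With the mut9 mutant the share of LINC genes called was near that of all genes. Against knockdown, 32 LINC genes were higher and 28 lower, 60 of 113 or 53.1%. Of all genes tested 48.6% passed (23.0% higher, 25.5% lower). Of the 85 genes never below 5 in a group mean, 38 were called. Among changes of at least 2-fold, 15 were higher and 19 lower, against 6.64% and 10.2% of all genes, 16.8% together, and among the 85 genes 6 were higher and 10 lower. The groups were apart for 60 genes, against 46.9% of all genes. LINC00463 had 7.16, 7.59 and 6.88 in mut9 libraries and rose by 3.74 ± 0.27 (adjusted p 2.57e-09). LINC02197 rose by 3.16 ± 0.26 (adjusted p 1.1e-08) and LINC02732 by 2.80 ± 0.23 (adjusted p 9.83e-09). LINC00973 fell by 3.90 ± 0.47 (adjusted p 1.44e-06), LINC02392 by 2.39 ± 0.49 (adjusted p 0.000483) and LINC00941 by 2.02 ± 0.20 (adjusted p 1.63e-07). The mut9 libraries of LINC00941, 6.41, 6.63 and 6.88, stood within the range of the control libraries, 6.35, 6.50, 7.07 and 6.80.

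Between mut9 and wild type, 5 LINC genes were higher and 10 lower in mut9 cells, 15 of 113, against 18.8% of all genes tested (11.2% higher, 7.61% lower). Of those at 2-fold or more, 1 was higher and 3 lower, where 3.38% of all genes passed (2.64% higher, 0.743% lower). Among the 85 genes never below 5 in a group mean limma called 0 higher and 0 lower by that much. At any size, 17 of the 85 had an unadjusted p below 0.05, as had 5763 of the 18040 genes tested. The groups were apart for 21 genes, against 23.8% of all genes. The count fell to 9 without mut9 replicate 3, and a call here rests on 3 mut9 libraries. LINC00892 was the only one of the 15 at 2-fold or more above wild type, and is described below. LINC01192 differed by -1.62 ± 0.39 (adjusted p 0.00765), but without mut9 replicate 5, its lowest mut9 library, by -1.07 (adjusted p 0.067). LINC00659 differed by -1.20 ± 0.30 (adjusted p 0.00862), with 5.38, 5.19 and 5.48 in mut9 libraries, against 6.58, 6.18, 6.56, 6.68 and 6.77 in wild-type libraries, and no overlap. LINC02253 differed by -1.03 ± 0.28 (adjusted p 0.0142), and lost its call without mut9 replicate 5 (adjusted p 0.0677). LINC01116 was higher by 0.47 ± 0.11 (adjusted p 0.00819), with 10.15, 10.04 and 9.99 in mut9 libraries, against 9.32, 9.68, 9.51, 9.83 and 9.63 in wild-type libraries, and an adjusted p of 0.0531 without mut9 replicate 3.

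Wild-type libraries still differed from control libraries in 45 LINC genes, 37 higher and 8 lower, where 39.6% of all genes passed (21.3% higher, 18.3% lower). The groups were apart for 35 genes, against 31.2% of all genes. The median difference was 0.223 log2 units over the 113 genes, 0.117 over the 85 with every group mean at 5 or more, and 0.033 over all genes tested. At 2-fold or more, 17 were higher and 3 lower, against 6.15% and 1.74% of all genes, 7.89% together, and among the 85 genes 7 were higher and 2 lower. With quantile scaling the counts were 27 higher and 13 lower and the LINC median was 0.02. Among the rises, LINC03070 differed by 3.58 ± 0.23 (adjusted p 1.95e-09), LINC01192 by 2.95 ± 0.36 (adjusted p 4.4e-06), LINC00973 by 2.67 ± 0.43 (adjusted p 8.22e-05), LINC02392 by 2.46 ± 0.45 (adjusted p 0.000284) and LINC00463 by 0.94 ± 0.25 (adjusted p 0.0051). The genes lower by 2-fold or more included LINC03018 (-1.47 ± 0.31, adjusted p 0.000948) and LINC01547 (-1.11 ± 0.25, adjusted p 0.00176). LINC03018 had 5.10, 6.04, 5.31, 4.32 and 4.57 in wild-type libraries, against 7.47, 6.22, 6.15 and 6.31 in control libraries, without overlap.

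Orders of the group means other than those above are given here for 5 named genes. LINC03070 (ENSG00000236120) had 10.60, 10.77, 10.39 and 10.80 in delta 22 libraries, 10.84, 10.61 and 10.58 in mut9 libraries, and 9.91, 10.11, 10.93, 10.25 and 10.91 in wild-type libraries. It had 10.10, 10.18, 10.57, 10.04 and 10.11 in knockdown libraries, and 6.34, 6.66, 7.66 and 6.73 in control libraries. The libraries with the EWS/FLI RNAi ran from 9.91 to 10.93 and the control libraries from 6.34 to 7.66. The differences from knockdown were 0.44 ± 0.23 with delta 22 (adjusted p 0.307), 0.48 ± 0.25 with mut9 (adjusted p 0.122) and 0.22 ± 0.22 with wild type (adjusted p 0.384), none of which passed the test, although a fit of the mut9 and knockdown libraries alone called the mut9 difference (0.48, adjusted p 0.012). The RNAi construct differs between these libraries and the control libraries, and its effects cannot be told apart from those of EWS/FLI loss for this gene.

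LINC01192 was lower in knockdown than in control cells, with a difference of -0.91 ± 0.36 (adjusted p 0.0307), a call that was lost without control replicate 1 (adjusted p 0.124) or 2, or knockdown replicate 2 or 4. It had 3.84, 2.94, 4.76 and 3.47 in delta 22 libraries, and 6.37, 6.36 and 4.71 in mut9 libraries. In mut9 it thus reached levels between knockdown and wild type, with replicate 5 the lowest, whereas delta 22 libraries spanned the knockdown range. Its group mean in wild type, 7.43, was above those in all other groups.

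LINC00892 (ENSG00000233093) was highest with mut9. It had 5.45, 5.16, 4.71 and 5.79 in delta 22 libraries, and 7.79, 7.39 and 7.09 in mut9 libraries. It had 5.47, 5.91, 5.84, 5.35 and 5.28 in wild-type libraries, 4.99, 5.02, 4.40, 4.83 and 3.42 in knockdown libraries, and 5.65, 5.37, 4.99 and 5.39 in control libraries. All 3 mut9 libraries were above every other library. The difference from wild type was 1.86 ± 0.31, or 3.62-fold (adjusted p 0.000534), and that from knockdown 2.89 ± 0.31 (adjusted p 3.56e-07). Its nearest protein-coding gene, CD40LG, the gene of a T cell ligand, was too low to be tested.

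LINC00963, the most abundant of the 113 by its deposited value, had its highest group mean with mut9, with 11.61, 11.55 and 11.17 in mut9 libraries, against 10.22, 10.28, 10.61, 10.58 and 10.49 in knockdown libraries. These groups were apart and the difference was 1.01 ± 0.16 (adjusted p 3.68e-05). Its wild-type libraries, 10.46, 11.19, 11.20, 11.05 and 10.69, overlapped those of mut9. The difference between mut9 and wild type was 0.53 ± 0.16 (adjusted p 0.0265), and the call was lost without mut9 replicate 3 (adjusted p 0.138) or 4 (0.11), without wild-type replicate 1 (0.062) or 5 (0.0575), in a fit of these groups alone (0.0858) and without the filter on low values (0.0504). LINC00461, the host of a precursor of the neural microRNA miR-9, passed the test in none of the 7 comparisons. It had 8.38, 7.56, 7.58 and 7.66 in delta 22 libraries, and 7.89, 7.87 and 7.88 in mut9 libraries. It had 7.31, 8.13, 7.62, 7.46 and 7.14 in wild-type libraries, 8.20, 7.30, 7.76, 7.98 and 7.02 in knockdown libraries, and 7.51, 7.97, 8.08 and 7.65 in control libraries. Its groups overlapped, and delta 22 replicate 1 was the highest of all libraries.

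**Figure D4:**
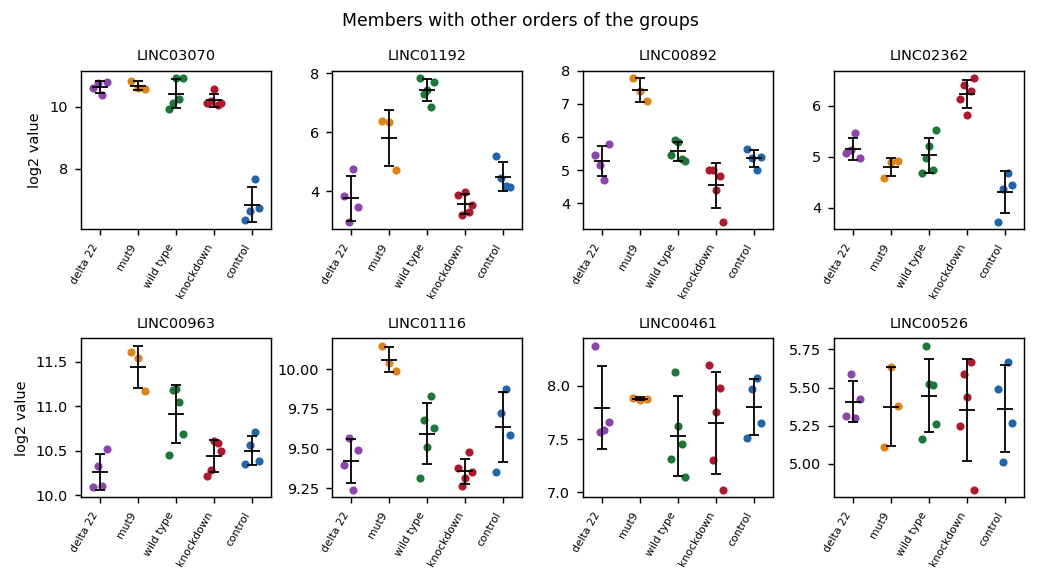
Deposited log2 values of 8 LINC genes with other patterns, by group from delta 22 to control, with 1 point per library and the mean with its SD. LINC03070 is high in every group that received the EWS/FLI RNAi, LINC01192 is highest in wild type, LINC00892, LINC00963 and LINC01116 have their highest mean in mut9, and LINC00526 is level across groups.

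For each LINC gene the nearest protein-coding gene on either strand was read from GENCODE 29, and 92 of the 113 neighbours were tested. It was taken at any distance, and the distances were not kept. A gene said to be next to a LINC gene is therefore the nearest one and may lie far from it. The reads were counted by the authors without a stated strand setting, 11 neighbours overlap the LINC gene, and the part of shared or read-through transcripts was not tested. Of the 44 LINC genes higher with knockdown, 21 had a neighbour that was higher, 6 one that was lower, 10 one without a call and 7 one that was not tested. Of the 33 lower genes, 6 had a neighbour that was higher, 18 one that was lower, 1 one without a call and 8 one that was not tested. Of the 36 genes without a call, 17 had a higher, 7 a lower, 6 an uncalled and 6 an untested neighbour. In all, 39 of 62 called LINC genes with a tested neighbour had one called in the same direction and 12 in the opposite one, read beside 35.5% and 34.0% of all genes called higher and lower. Some genes are nearest to more than 1 LINC gene and count for each. Among them, TPST1 and SAMD11 count in both directions, so the pairs are not all independent.

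DCBLD2, next to LINC00973, averaged 16.23 in knockdown and 12.37 in control cells, a difference of 3.86 ± 0.18 log2 units (SE, adjusted p 1.02e-12). KLF6, the nearest to LINC00702 without overlapping it, was higher by 2.07 ± 0.21 (adjusted p 3.66e-08). ATP2B1, a plasma membrane calcium pump gene and the nearest to LINC02392, also without overlap, was higher by 1.44 ± 0.17 (adjusted p 3.04e-07). AMER2, next to LINC00463, averaged 10.06 in knockdown and 14.09 in control cells, a difference of -4.03 ± 0.35 (adjusted p 3.86e-09). FDX1, a mitochondrial ferredoxin gene next to LINC02732, differed by -1.49 ± 0.09 (adjusted p 2.66e-11). These pairs moved the same way.

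For 12 called LINC genes the neighbour was called the other way, among them LINC00659 and LINC03070. NTSR1, a neurotensin receptor gene next to LINC00659, was higher by 2.37 ± 0.18 (adjusted p 5.9e-10) while LINC00659 was lower. NLGN4X, a neuroligin gene next to LINC03070, differed by -0.85 ± 0.20 (adjusted p 0.000789) while LINC03070 was higher. In other pairs 1 of the genes was not called. SLC39A11, a zinc transporter gene next to LINC00511, averaged 8.90 in knockdown and 8.76 in control cells (adjusted p 0.522), and ZNF703, next to LINC01605, had an adjusted p of 0.112. The nearest gene to LINC00461 is MEF2C, a transcription factor gene that was higher by 2.20 ± 0.24 (adjusted p 1.03e-07) while the LINC gene was not called.

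**Figure D5:**
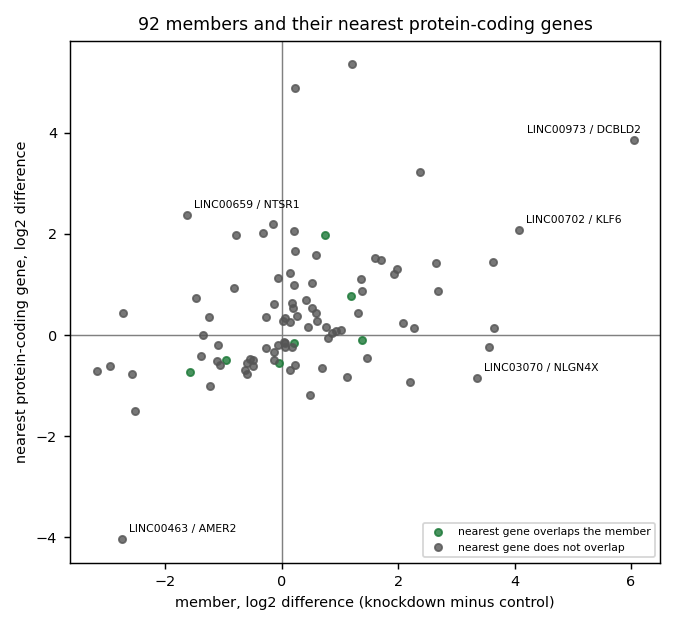
Difference between knockdown and control (log2 units) of 92 LINC genes on the horizontal axis and of their nearest protein-coding genes on the vertical axis, each point 1 pair. LINC00973 with DCBLD2 (6.04 and 3.86) lies at the upper right, LINC00463 with AMER2 (-2.75 and -4.03) at the lower left, and LINC00659 with NTSR1 lies at the upper left.

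Since GGAA repeats are what the study asks about, the RefSeq promoter windows were searched on both strands for the core GGAA and for the doubled unit GGAAGGAA, in which each match also counts as cores. Windows were given for 80 of the 113 LINC genes, read as 1 per gene. The 35116 windows of the whole reference were counted as given, without reduction to 1 per gene. GGAA stood in 76 of the 80 (95%), against 95.5% of all windows, with a median of 4 matches per LINC window and 3 per window overall. GGAAGGAA stood in 4 of the 80 (5%), in LINC00189, LINC00339, LINC00607 and LINC00920, against 3.67% of all windows. It stood in 3 of 30 windows of genes higher with knockdown, in 0 of 27 of genes lower with knockdown, and in 1 of 23 of those without a call. The repeats bound by EWS/FLI can lie far from a start, and these windows hold only the bases around it. The window of LINC00189, at chr21:29193244-29193543 on the plus strand of GRCh38.p14, is shown because it holds the doubled unit and 9 cores in all, in capitals.
LINC00189: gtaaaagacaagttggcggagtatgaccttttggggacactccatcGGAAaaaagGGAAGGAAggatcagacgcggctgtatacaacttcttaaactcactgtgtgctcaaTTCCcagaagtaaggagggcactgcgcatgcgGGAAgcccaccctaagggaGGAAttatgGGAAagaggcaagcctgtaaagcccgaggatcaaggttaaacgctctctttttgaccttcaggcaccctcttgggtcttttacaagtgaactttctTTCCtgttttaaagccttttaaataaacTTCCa

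Long noncoding RNAs with other names were read beside the LINC genes from a list of 49 well-known ones, of which 43 were tested. With knockdown 15 were higher and 18 lower, with a median of 0.002 log2 units, against 35.5% and 34.0% of all genes called. EWSAT1, a transcript first described in Ewing sarcoma, differed by -3.73 ± 0.24 (adjusted p 6.07e-11), FEZF1-AS1 by -4.12 ± 0.28 (adjusted p 1.31e-10) and DANCR by -2.43 ± 0.14 (adjusted p 2.11e-11). MIR100HG, the host of the miR-100 cluster, was higher by 3.63 ± 0.19 (adjusted p 2.73e-12). With delta 22 against knockdown 0 of the 43 were higher and 5 lower, where 2.24% and 2.26% of all genes were. With mut9 against knockdown 10 were higher and 10 lower, where 23.0% and 25.5% of all genes were. With wild type against knockdown 11 were higher and 16 lower, where 29.6% and 32.3% of all genes were.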

How the data were processed

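RNA of A673 cells was sequenced from ScriptSeq libraries in 5 groups. Per the labels' protocols, 2.5 ug of total RNA taken with RNeasy columns and on-column DNA digestion went into each library. Per the submitters' processing notes, the tools were DESeq2, HTSeq, STAR 2.5.2b and bcl2fastq, on the build hg19. The table deposited by the authors holds normalized log2 values from -4.1 to 20.2, with 17358 genes at exactly 0 in every library. Their form is that of regularized logarithms, which is read from the values. Library totals are not kept, so no depth or counting interval is given, and no pseudocount was added.

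Ensembl IDs were matched to symbols (51996 matched, 5824 not). LINC genes with a mean of at least 5 were kept. The members, the lists and the tests were chosen with earlier results of these data known. Genes with at least 3 libraries at a linear value of 10 were tested (18040 genes). In R 4.3.3, limma 3.58.1 was run with a mean-variance trend on the 21 libraries together, each group having its own mean. P-values are 2-sided and were adjusted by Benjamini-Hochberg across every gene that entered the test, with calls below 0.05. The fit was tested on simulated data.

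Named members were the 5 highest means, up to 8 largest rises and falls (knockdown against control, wild type against knockdown) or 5 (other comparisons) among called members whose groups do not overlap, the 3 smallest ranges of group means, those next to the threshold, and LINC00511, LINC00467, LINC00665, LINC01116 and LINC00461 from a list, with the nearest protein-coding genes. Of 14 markers of other cells 13 were matched, PECAM1 not.

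The replicate number is the labelled batch. Deviations from the group means correlated by 0.20 on average over 34 pairs of libraries with the same number, 24 of them above 0.1, and by -0.05 over 141 other pairs. Alternatives were other filters on low values, other scalings, the batch as a replicate block, array weights, fits of the compared groups alone, and leaving out each library. Neighbours came from GENCODE 29 and promoters from RefSeq on GRCh38.p14. The build differs from that of the deposited values, so no other coordinates are printed.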

Additional observations from a re-analysis of the deposited data

Results flagged for a closer look

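In 188 groups of 4 or 5 libraries (47 named LINC genes in delta 22, wild type, knockdown and control), 9 held a library far from the others by Dixon's ratio at the 95% level, which chance gives in about 1 in 20 groups. Delta 22 replicate 1 had 7.43 for LINC00662, where the other delta 22 libraries had 7.98 to 8.01, and it had 8.38 for LINC00461, where the others had 7.56 to 7.66. Wild-type replicate 4 had 10.90 for LINC02732, where the others had 10.55 to 10.65. Knockdown replicate 3 had 8.94 for LINC01547, where the others had 7.37 to 7.72. The same knockdown library had 10.57 for LINC03070 and 5.87 for LINC02233, where the others had 10.04 to 10.18 and 4.42 to 4.84. Control replicate 1 had 7.72 for LINC00355, where the others had 6.47 to 6.65, and 7.47 for LINC03018, where the others had 6.15 to 6.31. Control replicate 5 had 6.16 for LINC00944, where the others had 6.68 to 6.73. All values are deposited log2 values.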

How the results depend on the processing

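Over 185 differences of named LINC genes, of which 181 passed the test, the alternatives gave 4863 values with the same direction and side of the threshold, 224 that no longer passed, 1 that newly passed (LINC03070, mut9 against knockdown, in a fit of these groups alone) and 1 of opposite sign, LINC00667 in knockdown against control with quantile scaling (-0.0069, where the main value is 0.15). Of the counts of called LINC genes, 204 stayed within 1.5 times the main count and 19 did not. A filter at a linear mean of 100 leaves 51 of the 113 genes by construction, of which 36 were called in knockdown against control, 34 in wild type against knockdown, 2 in delta 22 against knockdown, 29 in mut9 against knockdown, 26 in wild type against control, 32 in delta 22 against wild type, 5 in mut9 against wild type and 40 over all groups. For delta 22 against knockdown, where 6 were called, 2 were called without a filter on low values, 2 with quantile scaling, 3 with array weights and 1 in a fit of those groups alone, and the cause was not tested. With the batch as a replicate block, the paired analysis, the counts were 79, 78, 6, 61, 51, 69, 21 and 86 in the same order of comparisons, none beyond 1.5 times. Among the named differences the block changed the call of LINC00662 and of LINC02987 (delta 22 against wild type, adjusted p 0.0579) and LINC00659 (mut9 against knockdown, adjusted p 0.0534). Leaving out single libraries gave 69 to 78, 64 to 74, 2 to 7, 49 to 62, 40 to 49, 58 to 63, 9 to 17 and 84 to 88. The shrunken log2 scale limits what low genes can show.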
